A study of Saccharomyces cerevisiae with 4 samples.

Results

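The genes described here encode the machinery that transcribes ribosomal RNA and transfer RNA in the budding yeast Saccharomyces cerevisiae, and they were examined in a map of the chromatin protein Arp4. They are 40 of 6002 protein-coding genes, chosen by name as subunits of RNA polymerases I and III, subunits these enzymes share, and the factors that act with them. Of the 40, 24 encode enzyme subunits, 15 encode initiation factors and 1, MAF1, encodes a repressor. All 40 names were found in a table of genes on the R64 assembly.

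Arp4 is an actin-related protein of the nucleus and a subunit of the NuA4 histone acetyltransferase and of the SWR1 and INO80 remodelling complexes. Chromatin immunoprecipitation with an antibody against Flag was carried out on wild-type cells with ARP4-3FLAG (2 samples) and on wild-type cells with no tag (2 samples), all grown in YPD at 30°C to mid-log phase. Peak calls were analysed as 1 list of 1430 peaks that gives nothing per sample. Values below therefore have no replicate error and an unknown read depth, and the untagged signal was not analysed here. Each peak has a summit, its highest point, and a fold enrichment, the authors' linear ratio of signal at the summit to the background the peak caller used. Over the list the fold ran from 1.02 to 6.32 with a median of 1.66, and the median −log10 q, a measure of how far a peak stands above background, was 15.9.

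RNA polymerase I makes the large ribosomal RNA precursor, and RNA polymerase III makes transfer RNAs, the small ribosomal RNA of the large subunit and a few other short RNAs. Both are built around a pair of large catalytic subunits, with a stalk, small subunits common to all nuclear polymerases, and the Rpc40 and Rpc19 pair that only these enzymes share. Polymerase III is brought to its genes by TFIIIC, which binds sequences inside them, and by TFIIIB. Polymerase I is brought to the ribosomal DNA by the upstream activating factor, the core factor and Rrn3.

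Arp4 summits lay in 14 of the 40 genes when the promoter window and the gene body were counted together (35%, Wilson 95% interval 22.1 to 50.5, against 21.9% of all protein-coding genes). The promoter window began 500 bp before the annotated start and ended 100 bp past it, and the body was the part of the gene over 100 bp from both ends. A promoter summit was found at 8 of the 40 (20%, 10.5 to 34.8, against 14.0% of all genes) and a body summit in 7 (17.5%, 8.74 to 32.0, against 10.1% of all genes). RPA135 was the 1 gene with both. These shares are descriptions, since the members were proposed with results of these data known, and no test was made. The intervals cover counting error over genes only.

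**Figure D1:**
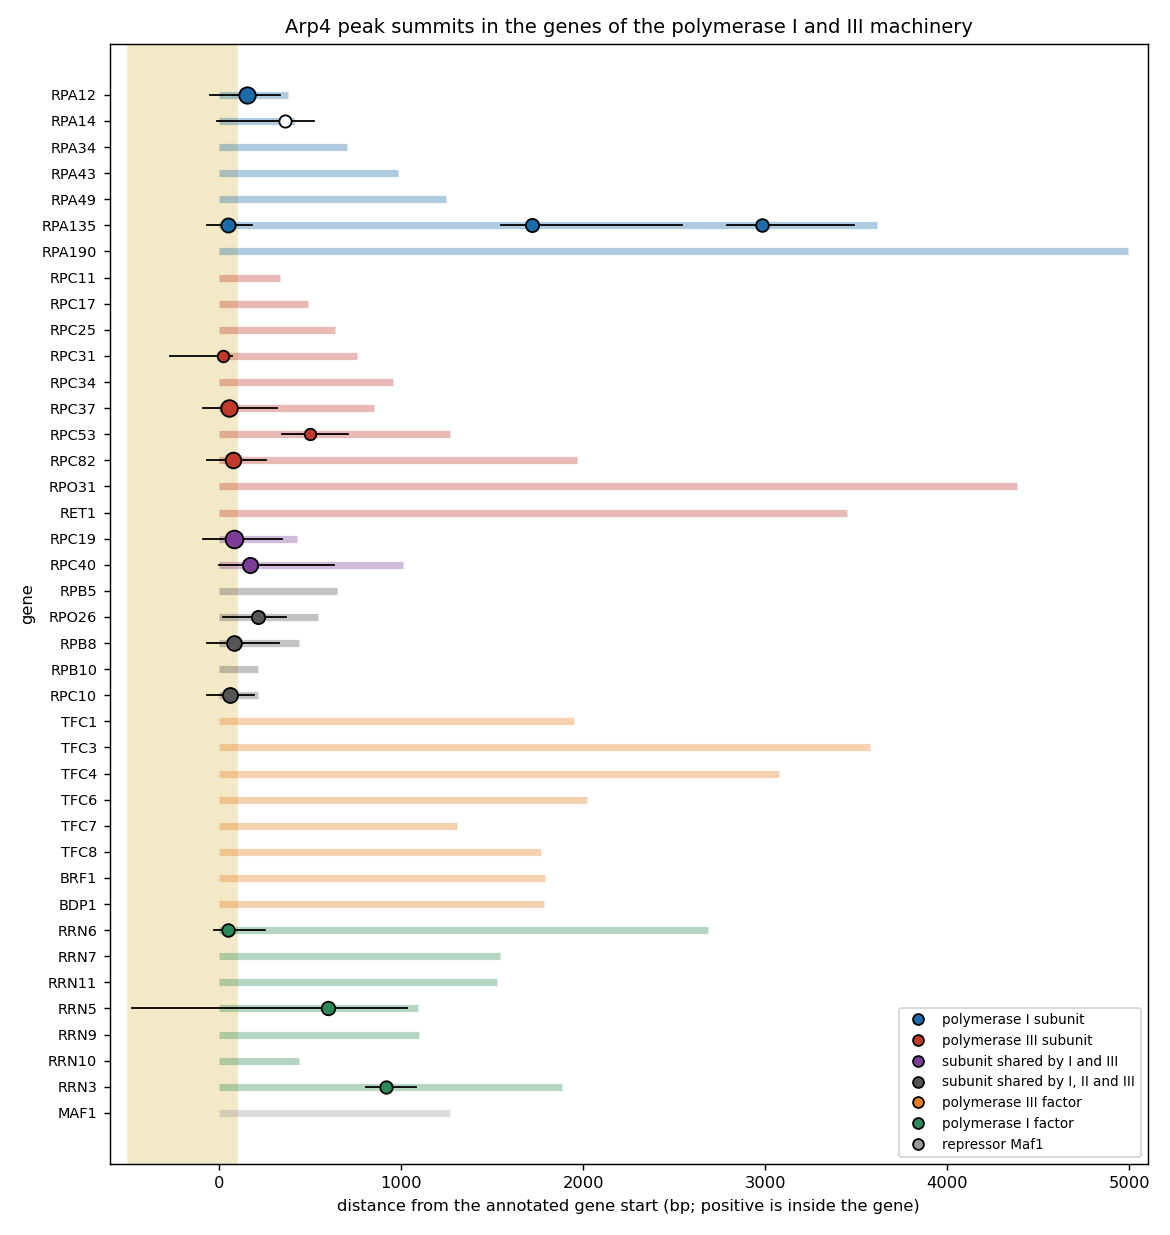
Positions of Arp4 summits (circles, area in proportion to fold) and the peaks around them (thin lines) in the 40 genes, with distance from the annotated start in bp on the horizontal axis and each gene drawn to its length as a pale bar; the shaded band is the promoter window. The 8 summits in the band all sit just inside the start, and the 8 genes of TFIIIC and TFIIIB have none; the white circle is RPA14, whose summit is 50 bp from the gene's end and counts for neither window nor body.

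A promoter summit was present at 3 of the 10 polymerase III subunit genes (30%, Wilson 95% interval 10.8 to 60.3), and the 14.0% of all genes lies inside that interval. RPC37 had the highest fold among them, 3.03 (−log10 q 74.6), and its summit was 55 bp inside the gene (chromosome XI, 487684 to 488086). Its product pairs with Rpc53 in a module that acts in initiation and in termination. RPC53 had no promoter summit but a body summit of fold 1.46, 497 bp inside the gene, with a −log10 q of 5.5 (chromosome IV, 183688 to 184053). Of this pair, 1 gene therefore ranked 78th by fold among the 1430 peaks and the other 1071st.

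The other polymerase III module with peaks was the initiation subcomplex of Rpc82, Rpc34 and Rpc31. At RPC82 the fold was 2.70 and the −log10 q 59.3, with the summit 74 bp inside (chromosome XVI, 918781 to 919106). RPC31 had the weakest promoter summit of all the members (fold 1.47, −log10 q 4.8), 20 bp inside the gene (chromosome XIV, 348451 to 348789). For RPC34 the nearest summit, of fold 1.24, lay 173 bp past the end of the gene. Of this subcomplex, RPC82 was thus above the median fold of the list, RPC31 below it and RPC34 without a summit of its own.

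No peak base lay over the other polymerase III subunit genes. These were RPO31 and RET1, which encode the large catalytic subunits, RPC17 and RPC25, which encode the stalk, and RPC11, whose product is needed for RNA cleavage and termination. Their nearest summits were 1813 bp away (RPC25) to 19002 bp away (RPO31). RPC17 lies 196 bp from a transfer RNA gene, the only member within 500 bp of one, and no summit lay within 5398 bp of it.

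Among the 7 polymerase I subunit genes, RPA135 and RPA12 had summits in window or body (28.6%, 8.22 to 64.1, against 21.9% of all genes). RPA135, encoding the second-largest subunit, had 3 of the 16 summits counted for the members. The first was 50 bp inside the start with a fold of 2.17 (chromosome XVI, 581014 to 581260). Further summits lay 1721 and 2982 bp inside, with folds of 1.91 and 1.77 and peaks 997 and 697 bp wide. The fold was thus highest at the start of this gene, which is 3612 bp long, and the peaks in its body were wider than the 247 bp peak at its start.

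RPA12, encoding the small subunit that stimulates RNA cleavage, had a summit 152 bp inside the gene with a fold of 2.95 (−log10 q 72.0; chromosome X, 555143 to 555528). That is 52 bp beyond the edge of the promoter window, and because the gene is 378 bp long the summit counts for the body. The peak itself spans the start, from 52 bp upstream to 333 bp inside. A stronger peak, of fold 3.62, had its summit 396 bp past the end of RPA12, inside the chaperonin gene CCT5.

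RPA14, which encodes a stalk subunit, was overlapped by a peak of fold 1.64 and −log10 q 21.6 that reached from 11 bp upstream of the start to 521 bp downstream of it (chromosome IV, 769514 to 770046). Its summit was 50 bp before the gene's end, so it counts for neither window nor body. RPA190, encoding the largest subunit, RPA43, the other stalk subunit, and RPA34 and RPA49, which encode a pair acting in initiation and elongation, had no peak base over the gene. RPA190 and RPA43 are neighbours that start in opposite directions from 1 stretch of 804 bp, and no summit lay in that stretch. Hence 1 upstream region without a summit accounts for 2 of the members that lack one.

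The genes of the subunits that polymerases I and III share both had a summit in their first 200 bp. That share (100%, Wilson interval 34.2 to 100, against 6.41% of all genes) rests on 2 genes only. RPC19 had the highest fold of all members, 3.43, with a −log10 q of 94.2 and its summit 83 bp inside the gene (chromosome XIV, 412684 to 413118). It ranked 54th of the 1430 peaks. At RPC40 the fold was 2.54 and the −log10 q 43.1, with the summit 171 bp inside (chromosome XVI, 746206 to 746835), which places it in the body by the rule used. Rpc40 and Rpc19 form the heterodimer on which both enzymes are assembled.

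Of the 5 genes for subunits common to all 3 nuclear polymerases, 3 had a summit in window or body (60%, 23.1 to 88.2, against 21.9% of all genes). RPC10, also known as RPB12, had a fold of 2.45 with the summit 59 bp inside the gene (chromosome VIII, 387167 to 387424). RPB8 followed with 2.39, 81 bp inside (chromosome XV, 760936 to 761330). RPO26, which encodes the subunit Rpb6, had a body summit of fold 1.92, 212 bp inside (chromosome XVI, 911278 to 911625). RPB5 and RPB10 had none, with the nearest summits 5071 and 13783 bp away. RPB10 and RPC10 are 213 bp long, so their bodies by this rule are almost nil.

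The initiation factors of polymerase III carried no Arp4 peak. TFC1, TFC3, TFC4, TFC6, TFC7 and TFC8, the 6 subunit genes of TFIIIC, and BRF1 and BDP1, 2 genes of TFIIIB, had no summit in window or body, and no peak base lay over any of the 8 (0 of 8, Wilson upper limit 32.4%). The nearest summit to TFC1 was 316 bp past its end, inside the mitochondrial ribosomal protein gene MRPL36, with a fold of 2.26. For the other 7 the nearest was 1578 bp (TFC6) to 15125 bp (TFC8) away. MAF1, whose product represses polymerase III, also had none, with the nearest summit 3709 bp past its end. The 14.0% of all genes with a promoter summit lies below that upper limit, so 8 genes are too few to set them apart from other genes.

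Polymerase I factors had a summit in window or body in 3 of 7 genes (42.9%, Wilson 95% interval 15.8 to 75.0), and the 21.9% of all genes lies inside that interval. RRN6, of the core factor, had the only promoter summit among all 15 factors (fold 1.75, −log10 q 14.7), 47 bp inside the gene (chromosome II, 201498 to 201778). RRN3 had a body summit 917 bp inside, near its middle, where the fold was 1.70 and −log10 q 10.6 (chromosome XI, 209054 to 209326).

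In RRN5, of the upstream activating factor, the body summit was 599 bp inside, and its fold was 2.0 (−log10 q 61.9). It belonged to a peak 1514 bp wide that began 480 bp upstream of the start and ended 1033 bp inside (chromosome XII, 423203 to 424716), the widest peak among the members. RRN7 and RRN11, of the core factor, and RRN9 and RRN10, of the upstream activating factor, had no peak base over the gene. Their nearest summits were 2028 bp (RRN7) to 7484 bp (RRN9) away. Among the 3 genes listed here for each of these factors, then, 1 carried a summit in window or body, against 21.9% of all genes.

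Of the enzyme subunit genes, 7 of 24 had a promoter summit (29.2%, Wilson 95% interval 14.9 to 49.2), and of the initiation factor genes, 1 of 15 (6.67%, 1.19 to 29.8). The 14.0% of all genes lies just under the interval of the subunits and inside that of the factors, and the intervals of subunits and factors overlap. Counting window and body together, 11 of 24 subunit genes (45.8%, 27.9 to 64.9) and 3 of 15 factor genes (20%, 7.05 to 45.2) had a summit, against 21.9% of all genes. Body summits were found in 5 of 24 subunit genes (20.8%, 9.25 to 40.5) and 2 of 15 factor genes (13.3%, 3.74 to 37.9), against 10.1% of all genes. The difference between subunits and factors was not tested.

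The gap was widest in the first 200 bp of the gene, a stretch taken up with earlier results of these data known. A summit lay there in 9 of 24 subunit genes (37.5%, 21.2 to 57.3) and in 1 of 15 factor genes (6.67%, 1.19 to 29.8), against 6.41% of all genes. Genes specific to polymerase II, described below, had one in 2 of 7 subunit genes (28.6%, 8.22 to 64.1). Their general factor genes had one in 1 of 17 (5.88%, 1.05 to 27.0). Other genes of the pathways had one in 3 of 20 (15%, 5.24 to 36.0). For polymerase II the share was also higher in subunit genes than in factor genes, but on few genes and with overlapping intervals. In the promoter window those polymerase II shares were 28.6% and 23.5%. The 9 subunit genes among the members were RPC19, RPC37, RPA12, RPC82, RPC40, RPC10, RPB8, RPA135 and RPC31, in descending order of fold there.

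Subunit genes are shorter than factor genes, with a median length of 729 bp (213 to 4995) against 1785 bp (438 to 3573) and 1200 bp over all genes. Longer genes hold more body, so the body counts are not matched for length. The upstream stretch to the next annotated gene was alike, with medians of 478 bp for subunits, 442 bp for factors and 424 bp for all genes. An upstream neighbour on the opposite strand was present at 20 of 24 subunit genes (83.3%) and 8 of 15 factor genes (53.3%), against 51.9% of all genes. Of the 7 subunit genes with a promoter summit, 4 had such a neighbour. Of the subunit genes without such a neighbour, RPC31, RPB8 and RPC10 had a promoter summit and RPC11 did not. Promoter summits were not counted by orientation over all genes. The part of gene length and orientation in the counts was not tested.

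**Figure D2:**
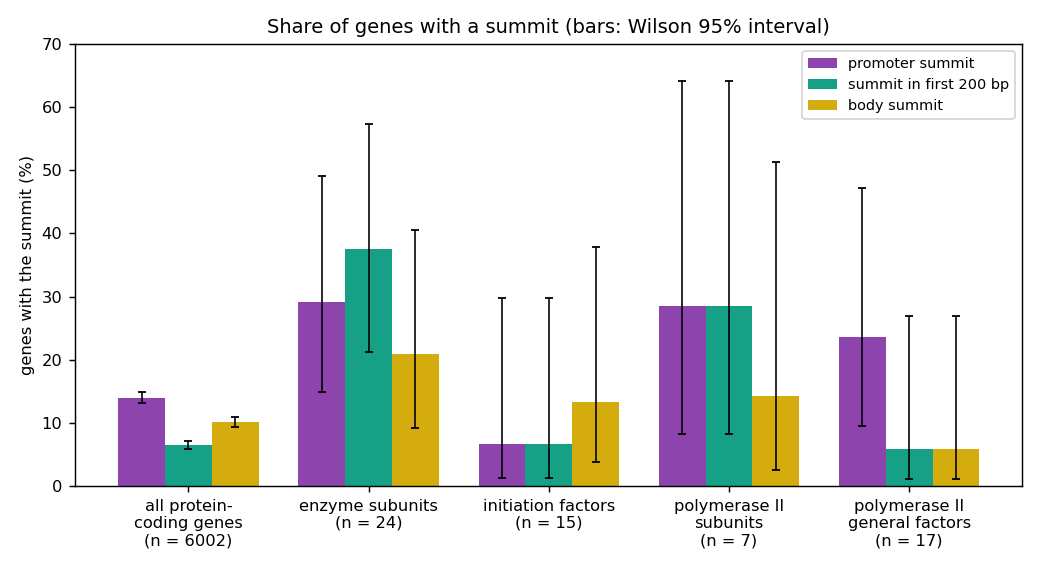
Percentage of genes with an Arp4 summit in the promoter window, in the first 200 bp of the gene and in the gene body, for all genes and 4 groups, with Wilson 95% intervals as error bars and group sizes under the bars. Enzyme subunits reach 37.5% in the first 200 bp, whereas initiation factors are at 6.67% and all genes at 6.41%. Polymerase II subunits are at 28.6% there and polymerase II general factors at 5.88%. The intervals of the small groups are wide.

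Where a member had a promoter summit, it lay inside the gene. All 8 promoter summits of the members lay 20 to 83 bp inside, with a median of 57 bp, and 0 lay upstream of the start. The window ends 100 bp inside, which limits the upper end of this range. Over all 839 genes with a promoter summit, the strongest one was inside the gene in 268 (31.9%), and the median position was 267 bp upstream. No summit of any of the 24 subunit genes or 15 factor genes lay between the start and 500 bp upstream. Over all genes, 3.07% had a summit 401 to 500 bp upstream and 3.1% had one 301 to 400 bp upstream. In the steps of 100 bp from there to the start the shares were 2.2%, 0.65% and 0.6%. Whether the absence of upstream summits in so few genes departs from these low shares was not tested.

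Farther inside, summits thinned out in the subunit genes and over all genes alike. Summits fell in the first 100 bp (0 to 99 bp inside) in 7 of 24 subunit genes, against 4.5% of all genes. From 100 to 199 bp inside they were found in 2 of 24 (8.33%), RPA12 and RPC40, against 1.9% of all genes. Each of the 3 following steps of 100 bp held 1 of 24 (4.17%), RPO26, RPA14 and RPC53 in turn. Over all genes the shares in those steps were 1.7%, 1.3% and 0.62%. Genes too short to reach a step stay in its group size, RPB10 and RPC10 at 213 bp among them. Part of the fall is therefore built in. The edge of the promoter window thus falls between RPC19, 83 bp inside, and RPA12, 152 bp inside.

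**Figure D3:**
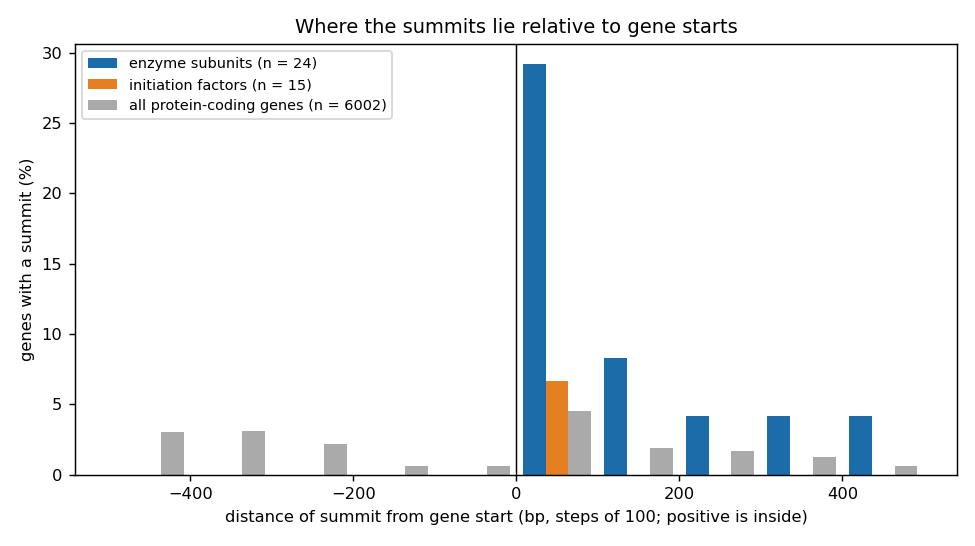
Percentage of genes with a summit in each step of 100 bp around the annotated start (negative is upstream), for 24 enzyme subunit genes, 15 initiation factor genes and all 6002 genes. Subunit genes reach 29.2% in the first 100 bp inside and have no summit upstream, where all genes show a broad second rise between 500 and 200 bp.

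The peaks behind the 8 promoter summits were alike in extent. They were 247 to 435 bp wide, and all 8 spanned the annotated start. With summits this close to the start, and no peak in the list under 220 bp wide, spanning it is largely set in advance. The share over other genes with such a summit was not computed. In 7 of them the peak began 30 to 87 bp upstream of the start, and RPC31 was the exception at 268 bp. They ended 70 bp (RPC31) to 347 bp (RPC19) inside the gene. The RPC40, RPA12 and RRN5 peaks, counted for the body, also reached the start, whereas the RPO26 peak began 21 bp inside.

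By fold, the promoter peaks of the members stood above the middle of such peaks. Their median was 2.42 (1.47 to 3.43), against 1.88 over the 839 genes with a promoter summit and 1.89 over the 268 with it inside the gene. Of the 8, 6 (75.0%) had a fold of 2 or more, against 42.7% of the 839 and 42.5% of the 268. All 6 were subunit genes, and the 2 below were RRN6 and RPC31. Each gene has 1 value and no replicate, so whether these folds differ between genes beyond the spread between cultures cannot be told.

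The body summits had a median fold of 1.92 over the 7 genes (strongest one per gene, 1.46 to 2.95), against 1.55 over the 609 genes with a body summit. The highest were RPA12 and RPC40, whose summits lie within 200 bp of the start. Those farther inside were RPA135 (1.91), RPO26 (1.92), RPC53, RRN5 and RRN3. Apart from that of RRN5, every summit counted for the members with a fold of 2 or more lay 171 bp or less inside. Not all summits near a start were strong, with folds of 1.47 at RPC31 and 1.75 at RRN6. Short genes such as RPA12, 378 bp long, leave little room for a summit farther inside. The part of gene length in this was not tested.

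**Figure D4:**
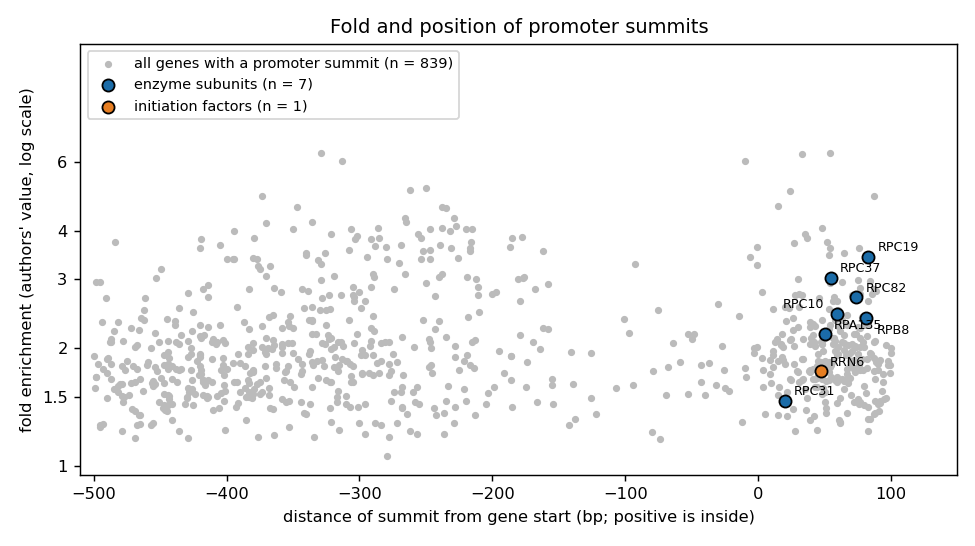
Fold enrichment (authors' value, log scale) against the position of the strongest promoter summit for 839 genes (grey), with the 7 enzyme subunit genes and the 1 initiation factor gene marked by name. The named genes lie 20 to 83 bp inside the start, with folds of 1.47 (RPC31) to 3.43 (RPC19).

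Some of these summits also fall in the promoter window of a neighbour that is read in the opposite direction. The RPC37 summit lies 453 bp upstream of DBP7, which encodes a helicase of ribosome assembly. The RPC82 summit lies 414 bp upstream of QCR2, encoding a subunit of the respiratory chain, and the RRN6 summit 355 bp upstream of FMT1. Body summits of RPA12 and RPO26 lie 498 bp upstream of NTA1 and 447 bp upstream of PZF1. In each case the summit is closer to the start of the member than to that of its neighbour. PZF1 encodes TFIIIA, the factor that brings TFIIIC to the gene of the small ribosomal RNA, so 1 summit is counted for a shared polymerase subunit and for a polymerase III factor outside the 40.

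Of 20 other genes of the same pathways, 3 had a promoter summit (15%, Wilson 95% interval 5.24 to 36.0, against 14.0% of all genes). These were NPA3, whose product helps bring RNA polymerase II into the nucleus (fold 2.31, 83 bp inside), NET1, encoding a nucleolar protein that binds polymerase I (1.97, 11 bp inside), and PZF1 through the RPO26 summit. Body summits were found in SPT4, an elongation factor gene (2.38, 101 bp inside), in RBA50 (1.63, 953 bp inside) and in NPA3 (1.60, 950 bp inside). The remaining 15 had none, among them SPT15, the gene of the TATA-binding protein used by all 3 polymerases, UAF30, HMO1 and REB1. The share for these genes was close to that of all genes.

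Genes specific to polymerase II were set beside these for comparison. Promoter summits lay at 2 of 7 subunit genes (28.6%, 8.22 to 64.1, against 14.0% of all genes), RPB11 (fold 1.75, 87 bp inside) and RPB9 (2.02, 259 bp upstream), and RPB4 had a body summit 156 bp inside (1.62). Among 17 general factor genes, 4 had a promoter summit (23.5%, 9.56 to 47.3, against 14.0% of all genes), namely TOA1 (6.02), SSL2 (3.50), TFG1 (2.99) and TFA1 (2.09). The summits at TOA1, SSL2 and TFG1 were upstream of the start, by 10, 326 and 329 bp, and those of SSL2 and TFG1 lay inside the neighbouring genes CCT2 and TYS1. TFA1 alone of the 4 had its summit inside, by 48 bp. The 14.0% of all genes lies inside the intervals of both polymerase II groups and of the polymerase III factors. Neither the presence nor the position of summits was tested between these groups.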

How the data were processed

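The 4 samples were grouped by the genotype in their labels. MACS2, SAMtools 1.4, BWA 0.7.15-r1140 and fastp 0.21.0 are the tools named, per the submitters' processing notes. Not given in the sources used here are build, control, threshold and any pooling of replicates. The deposited file is 1 peak list in the layout MACS2 writes. Its fold enrichment is the authors' linear ratio, its −log10 q is the deposited value of the caller, and its deposited score was not used. Peak positions are as deposited, counted from 1.

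Genes were placed by the R64 table with strand read from systematic names, and distances run from the first base of the annotated start. As a check of the match, a summit lay within 100 bp of 48 of 275 transfer RNA genes, and of 3 to 13 when all summits were moved by 200 to 1000 bp. Gene coordinates are not printed. Summit assignment was tested on simulated data, where 200 of 200 planted summits were counted or left out as the rule requires. They were planted with the same gene positions and strands, so this checks the coding only. Members, lists and windows were chosen with earlier results of these data known. All 40 members are named, and members of the comparison lists with a summit. Intervals are Wilson 95% intervals. Several genes may count 1 summit. The PAC, RRPE, Reb1 and Abf1 promoter motifs were planned, but sequence was not analysed here. Tools were Python 3.11.15 with pandas 2.3.3, numpy 2.4.6, matplotlib 3.10.9 and scipy 1.17.1. Alternatives covered peak thresholds, windows, overlap and neighbours.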

Additional observations from a re-analysis of the deposited data

How the results depend on the processing

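The count of members with a promoter summit was 7 to 10 in 7 of 9 alternatives (8 as reported), and RPC31 was the gene lost when peaks under the median fold, or with a −log10 q under 10, were left out. With a window from 250 bp upstream to the start it was 0 for members, subunits and factors alike, since that window leaves out the inside of the gene. With any peak base in the window counted, it was 13 for members, 11 for subunits and 2 for factors, gaining RPA12, RPA14, RPC40, RPO26 and RRN5. Extending the window to 200 bp inside gave 9 subunits and 1 factor. The count of members with a body summit was 12 with a margin of 50 bp, gaining 5 genes with a promoter summit, and 14 with any peak base over the body, gaining 6 such genes and RPA14; it was 5 to 6 in the 3 others. Shares over all genes were not computed under these alternatives, so the counts above have no background beside them. Wider windows can only add genes, whichever genes are counted. The median promoter fold was 2.42 to 2.49 and the median position 57 to 66.5 bp inside in the alternatives that gave a value. No paired analysis was possible because the list holds no values per sample, and for the same reason no replicate could be left out. The motif alternatives were not run. Depth is unknown, and a gene without a peak may have signal below the caller's threshold.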
